A study of Mus musculus with 12 samples.

Results

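Pax5, Ebf1, Ikzf1, Ikzf3, Pou2af1, Spib, Irf4, Irf8, Bcl11a and Foxo1 are 10 transcription regulators through which blood progenitors become B lymphocytes. They were followed in whole livers of mouse fetuses at 18.5 days post coitum, on 12 Affymetrix gene arrays. The probe sets were found by matching these symbols in the platform's gene table, and 10 of 10 genes were measured, each by 1 probe set of its own, among 19935 genes in all. They were selected on earlier results of the same contrast, namely their log2 differences between the genotypes, so those differences are given as descriptions and carry no test.

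All fetuses were labelled male, of strain 129/S6 (taconic). Of the arrays, 6 were labelled wild type and 6 double knockout, meaning that both macroH2A1 and macroH2A2, variants of histone H2A with a large extra domain, had been deleted. Early embryos of both genotypes were mixed before transfer to wild-type recipient females, and the frozen livers gave total RNA extracted with Trizol. Each array was taken as 1 fetus. The labels do not say which fetuses shared a female or a litter, so the p-values measure only the spread between these samples.

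The fetal liver is the main blood-forming organ before birth and the first large site of B-cell production. In a lymphoid progenitor, Ikaros (Ikzf1) and the ETS factor PU.1 open lymphoid genes, E2A and Foxo1 help switch on Ebf1, and Ebf1 then activates Pax5, which locks the cell into the B lineage. Pou2af1, Spib, Irf4, Irf8 and Ikzf3 have roles at the pre-B stage or after it, around signalling by the pre-B receptor, and are not limited to it. Several of these genes are also used outside the lineage: Irf8 in macrophage precursors, Ikzf1 and Bcl11a in red-cell precursors, where both take part in globin gene control, and Foxo1 in hepatocytes and endothelium.

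Promoter stretches are shown for 5 genes. Ebf1, Pax5, Pou2af1 and Spib are among the regulators with lower double-knockout means described below, and are not the only ones. Foxo1 is shown because it alone held a match to the EBF letters. RefSeq entries on build GRCm38.p6 were found for 9 of the 10 genes, 12 entries in all, each running from 250 bases before to 50 bases after an annotated transcription start. Printed here are the first 280 bases, 5' to 3' on the gene's strand, up to 30 bases past the start. Capitals mark matches, on either strand, to a searched motif.
Ebf1 (chr11:44619978-44620257, plus strand): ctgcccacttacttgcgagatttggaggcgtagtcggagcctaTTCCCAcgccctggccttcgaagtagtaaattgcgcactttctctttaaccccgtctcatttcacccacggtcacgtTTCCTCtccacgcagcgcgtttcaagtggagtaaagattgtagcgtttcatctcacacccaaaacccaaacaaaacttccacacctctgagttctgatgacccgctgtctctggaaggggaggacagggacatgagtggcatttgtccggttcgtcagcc
Pax5 (chr4:44710665-44710944, minus strand): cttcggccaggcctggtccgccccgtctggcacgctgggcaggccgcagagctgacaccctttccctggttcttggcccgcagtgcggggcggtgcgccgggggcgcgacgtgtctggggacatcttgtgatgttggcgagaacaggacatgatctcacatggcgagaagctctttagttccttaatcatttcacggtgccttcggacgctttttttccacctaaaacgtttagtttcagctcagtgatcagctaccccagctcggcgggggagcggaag
Pou2af1 (chr9:51213440-51213719, plus strand): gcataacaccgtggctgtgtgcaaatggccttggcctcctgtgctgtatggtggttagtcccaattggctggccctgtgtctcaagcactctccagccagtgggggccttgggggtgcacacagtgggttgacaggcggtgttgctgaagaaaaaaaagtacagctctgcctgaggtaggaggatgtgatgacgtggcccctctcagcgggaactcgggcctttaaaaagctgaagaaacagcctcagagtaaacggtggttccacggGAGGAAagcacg
Spib (chr7:44532042-44532321, minus strand): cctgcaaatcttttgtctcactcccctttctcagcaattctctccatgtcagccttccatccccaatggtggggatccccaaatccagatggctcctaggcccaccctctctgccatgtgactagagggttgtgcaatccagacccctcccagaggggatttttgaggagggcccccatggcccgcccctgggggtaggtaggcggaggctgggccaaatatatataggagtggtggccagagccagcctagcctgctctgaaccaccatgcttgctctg
Foxo1 (chr3:52268087-52268366, plus strand): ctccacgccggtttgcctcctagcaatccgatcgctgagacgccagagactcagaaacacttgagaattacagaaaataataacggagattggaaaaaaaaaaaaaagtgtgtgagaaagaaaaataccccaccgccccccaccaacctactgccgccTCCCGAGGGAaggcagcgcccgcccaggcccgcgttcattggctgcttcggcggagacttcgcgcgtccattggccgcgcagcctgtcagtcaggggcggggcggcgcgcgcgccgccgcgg

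The printed Ebf1 entry carried an Ikaros match (TGGGAA, minus strand) at position -207 and a PU.1-type ETS match (GAGGAA, minus strand) at -130. Positions count the first transcribed base as 1. The other Ebf1 entry, not printed, starts at chr11:44617850. It had 36.7% GC and held none of the motifs searched. Pou2af1 carried a GAGGAA match at 19. Foxo1 carried the EBF letters CCCNNGGGA on the minus strand at -92 and on the plus strand at -91, which is 1 overlapping palindrome-like stretch. The printed Pax5 and Spib stretches held none of the motifs searched. Over the 12 entries, TGGGAA was found for Bcl11a, Ebf1 and Irf8, GAGGAA for Ebf1, Irf4 and Pou2af1, and the E2A letters CAGGTG for Irf8.

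None of the 12 entries held the octamer ATGCAAAT, the ETS-IRF composite GAANNGAAA or the forkhead letters GTAAACA. Among 32851 mouse promoter entries of the same length, 25.6% held TGGGAA, 28.3% GAGGAA, 6.6% CCCNNGGGA, 20.2% CAGGTG, 1.7% the octamer, 7.5% the composite and 3.6% the forkhead letters. A match is a run of letters and no evidence of binding. The GC content of the stretches was 53.0% for this Ebf1 entry, 59.0% for Pax5, 55.3% for Pou2af1, 58.0% for Spib and 61.3% for Foxo1 over their 300 bases, beside a median of 52.7% over all entries.

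The arrays were similar in centre, with medians from 7.55 to 7.61 on the log2 scale, and correlated with each other at 0.985 to 0.998. Their spread was less even. The interquartile range was 2.77 to 2.89 on wild-type replicate 6 and double-knockout replicates 3, 5 and 6, and 2.92 to 3.02 on the other 8 arrays, so the 4 narrow arrays fall mostly in the double knockout. Hepatocyte markers averaged 12.37 to 12.65 and erythroid markers 11.02 to 11.43 over the 12 arrays, high on every array. Exocrine pancreas markers ranged from 7.40 to 10.39 in wild type and from 7.49 to 10.32 in the double knockout, and intestine and stomach markers reached 8.29 on wild-type replicate 6 against 7.48 to 7.67 on the other arrays.

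Macroh2a1, the gene of macroH2A1, was 1.71-fold lower in the double knockout (limma adjusted p = 3.52e-05), with all 6 double-knockout arrays below all 6 wild-type arrays. Macroh2a2, the gene of macroH2A2, stood at a log2 value of 9.30 ± 0.15 on wild-type and 9.21 ± 0.28 on double-knockout arrays (SD, n = 6 per genotype; limma adjusted p = 0.992). Whether its probes lie in the deleted stretch was not analysed here, so this value checks no label.

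Each of the 10 B-lineage regulators had a lower mean in the double knockout. Their differences, double knockout minus wild type, ran from -0.51 for Spib to -0.02 for Bcl11a, with a median of -0.25, beside a median of 0.01 over all genes. A lower mean was seen in 41.0% of all genes. For Pax5, Ikzf3 and Pou2af1, 3 of the 10, all 6 double-knockout values lay below all 6 wild-type values, which held for 0.100% of all genes. These counts describe genes chosen with this contrast known.

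The whole-liver measurement cannot tell fewer cells of a type from less RNA in each cell. It also cannot separate a low value from background, since scanner background was not used here, and Pax5, Ikzf3, Spib and Irf4 had means under the median gene level. The other 6 lay above it.

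Ebf1, which starts the B-cell program, had a wild-type range of 8.23 to 8.50 with a median of 8.35. In the double knockout it ranged from 7.66 to 8.24 with a median of 7.98. Only double-knockout replicate 2, at 8.24, reached the wild-type range, and replicate 3 was lowest. The means were 8.36 ± 0.11 and 7.98 ± 0.21 (log2, SD, n = 6 per genotype). They differed by -0.38 (standard error 0.09, 95% interval -0.57 to -0.20), or 1.31-fold. The difference was -0.39 after quantile normalization and -0.19 with the 4 narrow-spread arrays left out.

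Pax5, the commitment factor, had tight values in both genotypes. Wild-type arrays ran from 7.74 to 7.93 with a median of 7.90, and double-knockout arrays from 7.58 to 7.70 with a median of 7.65. The genotypes did not overlap, although the gap between the highest double-knockout and the lowest wild-type array was small. The difference was -0.23 (standard error 0.04, 95% interval -0.32 to -0.14), or 1.17-fold lower, and without the 4 narrow-spread arrays it was -0.20.

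The Ikaros family is represented by Ikzf1, present from stem cells onward, and Ikzf3 (Aiolos), which rises as pre-B cells stop dividing. Ikzf1 measured 9.46 to 9.69 in wild type, median 9.63, and 9.39 to 9.63 in the double knockout, median 9.50. The ranges overlapped: 1 double-knockout array lay below all wild-type arrays and 3 wild-type arrays above all double-knockout arrays, and the difference was -0.11 (95% interval -0.21 to 0.0006). Ikzf3 measured 7.30 to 7.56 in wild type, median 7.37, and 6.98 to 7.22 in the double knockout, median 7.05. Its genotypes did not overlap. The Ikzf3 difference was -0.33 (standard error 0.05, 95% interval -0.44 to -0.22), or 1.26-fold lower.

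Pou2af1 (OBF-1, Bob1) is the B-cell coactivator that joins octamer-binding proteins on DNA. Its wild-type values ran from 8.83 to 9.01 with a median of 8.93, and its double-knockout values from 8.34 to 8.76 with a median of 8.49. The genotypes did not overlap; within the double knockout, replicates 1 and 2, at 8.72 and 8.76, stood above the other 4. The means were 8.93 ± 0.07 and 8.53 ± 0.17 (log2, SD, n = 6 per genotype). They differed by -0.39 (standard error 0.07, 95% interval -0.54 to -0.25), or 1.31-fold.

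Spib, an ETS factor close to PU.1 that is used by B cells and plasmacytoid dendritic cells, had the lowest difference of the 10. Wild-type arrays ran from 7.53 to 7.88 with a median of 7.74, and double-knockout arrays from 6.79 to 7.70 with a median of 7.22. Double-knockout replicate 2, at 7.70, lay inside the wild-type range and the other 5 lay below it. The double-knockout SD of 0.34 was wider than the wild-type SD of 0.13. The difference was -0.51 (standard error 0.13, 95% interval -0.79 to -0.24), or 1.43-fold lower, and it was -0.54 after quantile normalization and -0.24 without the 4 narrow-spread arrays.

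Irf4 and Irf8, interferon regulatory factors that pair with PU.1 or Spib at composite sites, both act in pre-B cells. Irf4 measured 6.74 to 7.12 in wild type, median 6.86, and 6.49 to 6.77 in the double knockout, median 6.64. Only 1 double-knockout array reached the lowest wild-type values. The Irf4 difference was -0.26 (standard error 0.07, 95% interval -0.42 to -0.11), or 1.20-fold lower. Irf8 measured 8.31 to 8.47 in wild type, median 8.42, and 8.14 to 8.41 in the double knockout, median 8.27. Here 4 of 6 double-knockout arrays lay below all wild-type arrays, and the difference was -0.13 (95% interval -0.23 to -0.03).

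Bcl11a, needed for the earliest lymphoid progenitors and known as a repressor of fetal-type globin genes, was nearly level. Wild-type arrays ran from 10.04 to 10.35 with a median of 10.28, and double-knockout arrays from 10.01 to 10.37 with a median of 10.25. The ranges coincided, and the difference was -0.02 (95% interval -0.17 to 0.13). It took either sign, from -0.06 to 0.02, as single arrays were left out.

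Foxo1, the forkhead factor that restrains growth and drives Ebf1 and recombination genes, was the most scattered of the regulators with Spib. Wild-type values ran from 9.52 to 9.95 with a median of 9.80, and double-knockout values from 9.30 to 10.16 with a median of 9.69. The double-knockout values enclosed the wild-type range: replicates 3 and 5 lay below it and replicate 4 above it. The difference was -0.10 (95% interval -0.37 to 0.17), and it was -0.08 after quantile normalization and turned to 0.18 without the 4 narrow-spread arrays, of which replicates 3 and 5 are part.

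**Figure D1:**
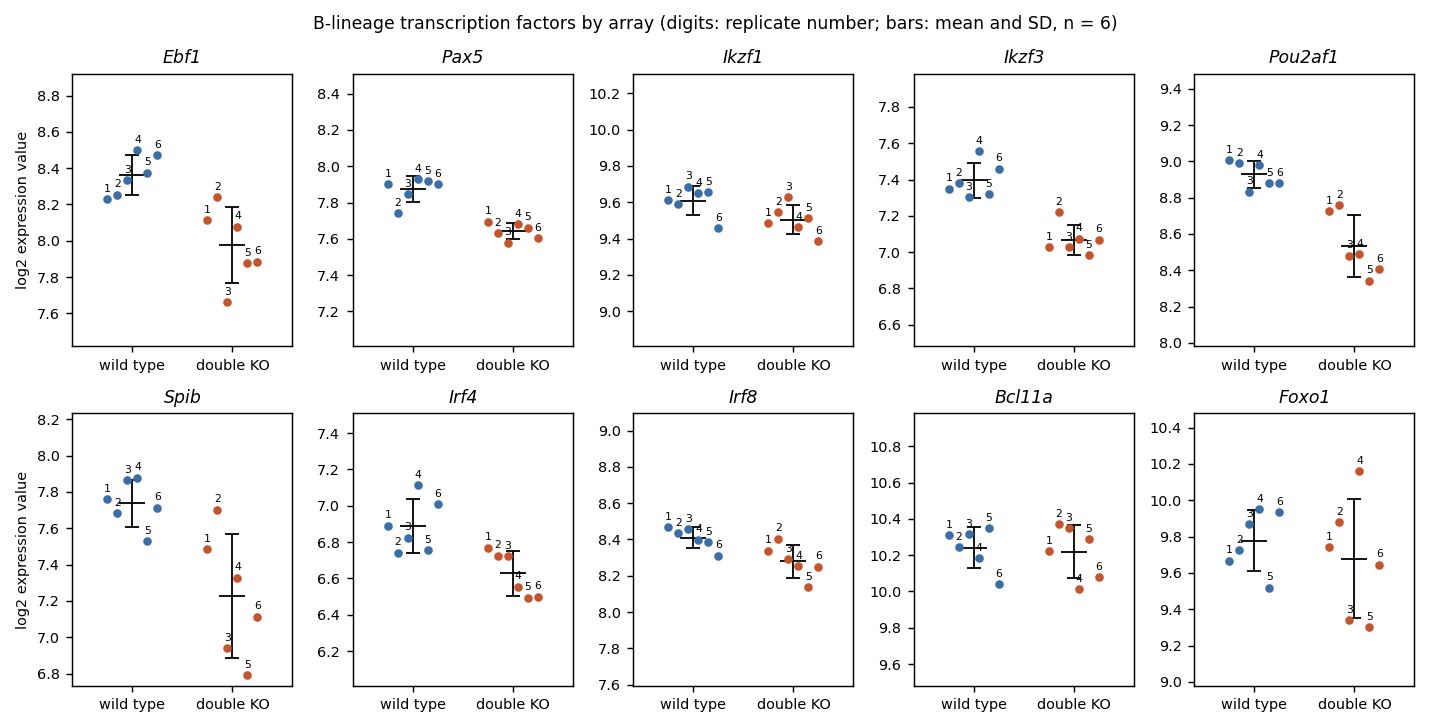
Log2 expression value of each of the 10 transcription factors (vertical axis, a separate offset but the same span of values in each panel) on every wild-type (blue) and double-knockout (orange) array. Digits give replicate numbers and bars the mean and SD of 6 arrays. Pax5, Ikzf3 and Pou2af1 show no overlap, while Bcl11a and Foxo1 overlap widely.

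The low and high double-knockout arrays recurred between genes. Replicate 2 was the highest double-knockout array for Ebf1, Ikzf3, Pou2af1, Spib and Irf8, and also for Bcl11a. Replicate 5 was the lowest for Ikzf3, Pou2af1, Spib, Irf4, Irf8 and Foxo1. Replicate 5 also had the narrowest spread of all arrays, an interquartile range of 2.77; the part of array spread in the differences was not tested.

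In the fit over all 19935 genes, 3 genes passed a limma adjusted p under 0.05, all lower in the double knockout, which is 0.0150% of genes. They were Macroh2a1, Pip5k1b, a phosphoinositide kinase (-0.98, adjusted p = 6.39e-05), and Pyurf (-0.44, adjusted p = 0.0473). None of the 10 regulators was among them. At an unadjusted limma p under 0.05, 7 of the 10 were lower, as were 1.28% of all genes; nothing is read from this count, since the contrast was used to choose them. After quantile normalization, which removes the unequal spread, 5 genes passed (0.0251%), with Ikzf3 and Pou2af1 added, and 6 of the 10 regulators no longer overlapped between genotypes, as did 0.211% of all genes. Without double-knockout replicate 2, 6 genes passed (0.0301%), the additions being Ikzf3, Pou2af1 and Cd79a. The regulators' places in these counts are likewise descriptions.

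**Figure D2:**
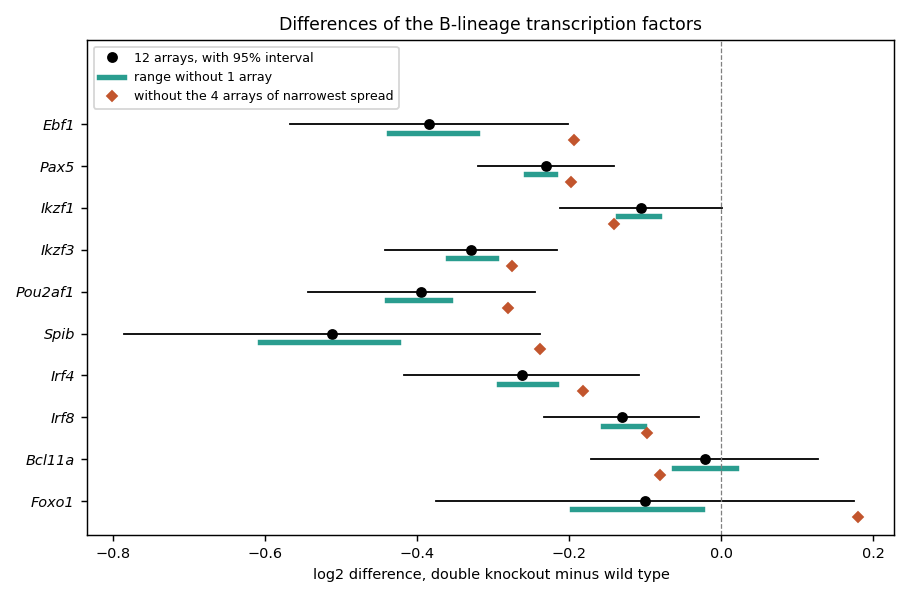
Log2 difference, double knockout minus wild type, of each transcription factor over 12 arrays (black point) with its 95% interval (line). Green bars span the values with each array left out in turn, and orange diamonds leave out the 4 arrays of narrowest spread. Under the latter, Spib, Ebf1, Pou2af1, Irf4, Ikzf3, Irf8 and Pax5 move toward 0, Ikzf1 and Bcl11a move away from it, and Foxo1 moves to 0.18.

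Other genes of the B-cell program were read from lists set out with the same prior knowledge, and none of their genes passed the threshold. The list of surface and signalling genes also held genes used by blood progenitors and other blood cells. Its counts are therefore not of B-lineage genes alone. The list had 41 measured members, of which 34 had lower and 7 higher means in the double knockout. Their median difference was -0.07, and 10 of the 41 were lower at an unadjusted limma p under 0.05. The list mean ran from 7.88 to 7.99 in wild type and from 7.76 to 7.94 in the double knockout, so the genotypes overlapped.

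Cd79a and Cd79b, the signalling chains of the B-cell receptor and direct targets of Ebf1 and Pax5, had the smallest p of that list. Cd79a ran from 7.74 to 8.02 in wild type and from 7.38 to 7.84 in the double knockout, a difference of -0.33 with a standard error of 0.07 (limma adjusted p = 0.585). Cd79b ran from 9.46 to 9.70 and from 9.12 to 9.53, a difference of -0.29 with a standard error of 0.07 (limma adjusted p = 0.907). Of the 6 double-knockout arrays, 5 lay below all wild-type arrays for Cd79a and 4 for Cd79b. Cd74, the class II invariant chain, differed by -0.30 with a standard error of 0.08 (limma adjusted p = 0.925).

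The list of other B-lineage regulators was closer to level. As set out, it also held family relatives of the 10 regulators and factors of other lineages, so its counts are not of B-lineage genes alone. Of its 43 measured genes, 25 had lower and 18 higher means, with a median of -0.04, and 3 were lower at an unadjusted limma p under 0.05. Myb, a progenitor factor needed for early B-cell survival, ran from 9.76 to 9.93 in wild type and from 9.65 to 9.76 in the double knockout without overlap, a difference of -0.13 (limma adjusted p = 0.992). Ets1 differed by -0.18 and Lef1 by -0.13, both with adjusted p = 0.992. Genes of mature B and plasma cells, which are not a fetal liver population, were even: 6 of 12 were lower, with a median of 0.008 and none at an unadjusted p under 0.05, and Mzb1 was the one with the smallest p, at -0.11.

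No marker of other blood cells passed the threshold. Neutrophil and precursor markers had 20 of 21 genes lower, a median of -0.09 and 8 genes lower at an unadjusted limma p under 0.05, with Chil3 at -0.41, Cd177 at -0.19 and Ltf at -0.14. T, NK and innate lymphoid markers had 8 of 23 lower with a median of 0.01, and their mean level, 6.27 to 6.43 in wild type and 6.29 to 6.39 in the double knockout, overlapped fully. Dendritic cell markers had 8 of 16 lower; within them Pld4 was lower by -0.20 and Siglech, a plasmacytoid dendritic cell receptor, higher by 0.12, neither past the threshold.

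Macrophage markers had 11 of 19 lower, erythroid markers 7 of 18, blood stem and progenitor markers 6 of 17 and mast cell and basophil markers 4 of 12, with medians between -0.03 and 0.03. Among the non-blood lists, hepatocyte markers had 16 of 17 lower with a median of -0.03, endothelial markers 14 of 18 with -0.06, Foxo1 targets of liver 13 of 19 with -0.02, and spleen stroma markers 3 of 10 with 0.04. All 14 exocrine pancreas markers had higher double-knockout means, with a median of 0.76, and 13 of 20 intestine and stomach markers had lower ones, with a median of -0.07. Over all 16 lists, 27 of 310 measured genes (8.71%) had an unadjusted limma p under 0.05 in either direction, beside 3.93% of all genes, and none an adjusted one. The part of these other tissues in the values of the B-lineage regulators was not tested.

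**Figure D3:**
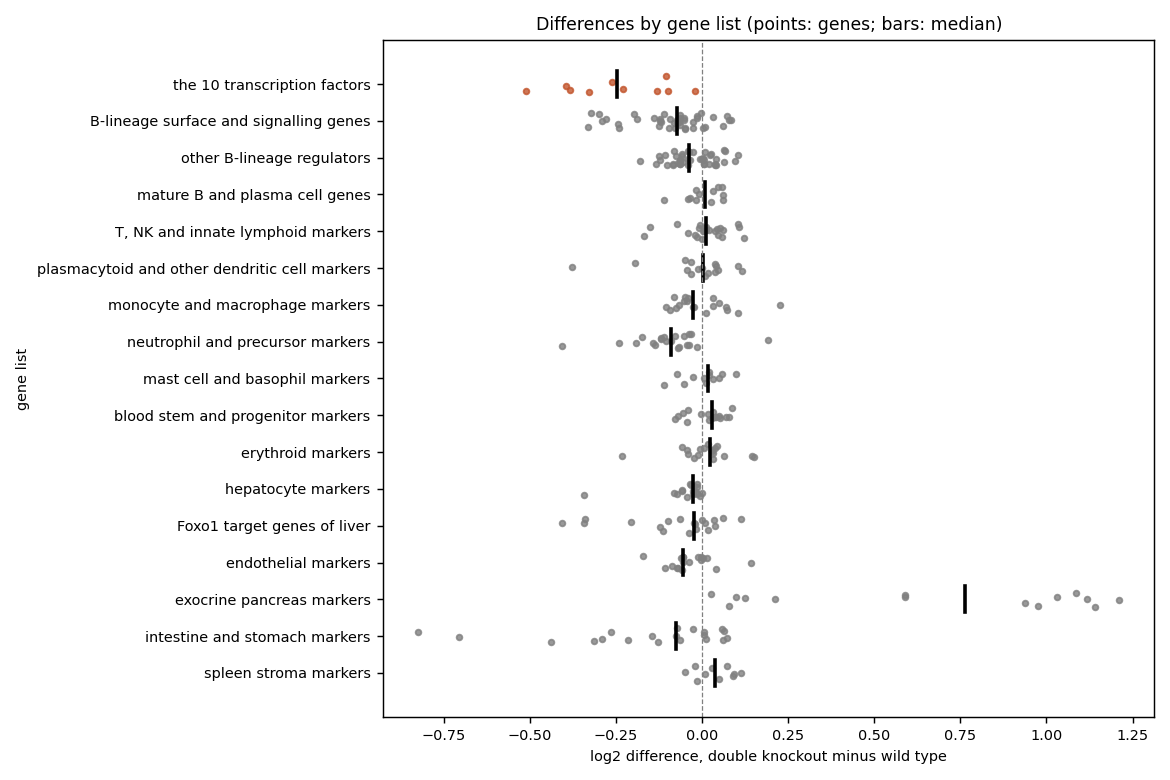
Log2 difference, double knockout minus wild type, of each measured gene (points) in 17 gene lists, with the list median (black bar); vertical scatter within a list has no meaning. The 10 transcription factors (orange) all lie below 0, with a median of -0.25, and the exocrine pancreas markers all lie above 0.

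How the regulators varied between fetuses of one genotype was examined next, since that variation did not enter their choice. Each value was centred on its genotype mean, and Pearson's r and Spearman's rho were taken over the 12 arrays with permutation tests of arrays within genotypes. Of 45 pairs among the 10 genes, 33 were positive and the median r was 0.277. At an unadjusted permutation p under 0.05 there were 10 pairs by r, and none passed after adjustment over the 45 pairs, by r (lowest adjusted p = 0.114) or by rho.

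The closest pair was Ikzf1 with Bcl11a, r = 0.821 and rho = 0.853 (permutation p = 0.00253 and 0.00132, adjusted 0.114 and 0.0594). Its r was 0.663 when 2 arrays were left out. Here and below, these are the arrays farthest from the median in the centred values of the first-named regulator. Pou2af1 followed Spib at r = 0.796 and rho = 0.727 (permutation p = 0.0175 and 0.0314, adjusted 0.14 and 0.177), but r was 0.373 without the 2 farthest arrays. Leaving out extreme arrays narrows the range, so a lower r does not by itself show that a relation rested on them. Pou2af1 with Irf8 gave r = 0.786, Ebf1 with Spib 0.765, Spib with Foxo1 0.76 and Ebf1 with Foxo1 0.721, all with adjusted permutation p = 0.14. In that order, r was 0.332, 0.185, 0.789 and 0.583 within the wild type. Within the double knockout it was 0.921, 0.887, 0.761 and 0.760. Pou2af1 with Spib gave 0.113 within the wild type and 0.907 within the double knockout, and Ikzf1 with Bcl11a 0.840 and 0.816. For Pax5, r was 0.528 with Ebf1 and 0.0758 with Pou2af1, neither past the threshold.

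Each gene was also set against the mean of each marker list within genotypes, 160 relations in all. At an unadjusted permutation p under 0.05 there were 31 by r, and 5 passed after adjustment over the 160; 4 of those 5 passed by rho too. The points share arrays, and array spread also moved with some of the genes: r with the interquartile range was 0.731 for Pou2af1, 0.71 for Irf8 and 0.604 for Spib, of which none passed (lowest adjusted permutation p = 0.0955).

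Pou2af1 followed the surface and signalling genes of B cells most closely, at r = 0.937 and rho = 0.944 (permutation p = 3e-05 and 0.00024, adjusted 0.0032 and 0.0192). Leaving out the 2 farthest arrays gave r = 0.826, and the r was 0.909 within the wild type and 0.948 within the double knockout. Double-knockout replicates 3, 5 and 6 were low and replicates 1 and 2 high for both measures. The adjusted permutation p by r was 0.0523 without double-knockout replicate 1. It was 0.0596 without wild-type replicate 6 and double-knockout replicate 5. After quantile normalization r was 0.868 and rho 0.706 (adjusted permutation p = 0.0759 and 0.18). Spib gave r = 0.825 with the same list, Irf8 0.699, Ebf1 0.645, Ikzf3 0.545 and Pax5 0.27, none past the threshold. Pou2af1 itself gave r = 0.846 with blood stem and progenitor and 0.838 with macrophage markers, both with adjusted permutation p = 0.0708. Taken gene by gene, the median r of Pou2af1 was 0.487 for the B-lineage list. It was higher for Foxo1 targets of liver (0.598), hepatocyte (0.544) and endothelial (0.544) markers, and at most 0.459, for neutrophil markers, in the other lists.

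Spib followed the list of Foxo1 targets of liver, which includes gluconeogenic genes such as G6pc, at r = 0.943 and rho = 0.923 (permutation p = 4e-05 and 0.00072, adjusted 0.0032 and 0.0288). The r was 0.955 without the 2 farthest arrays, 0.915 within the wild type and 0.948 within the double knockout, and 0.924 after quantile normalization. The adjusted permutation p rose to 0.0608 without wild-type replicate 5 and to 0.0523 without double-knockout replicate 1. Spib also gave r = 0.891 with hepatocyte and 0.88 with endothelial markers, neither past the threshold.

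Foxo1 followed endothelial markers at r = 0.901 and rho = 0.902 (permutation p = 0.00028 and 0.00017, adjusted 0.0149 and 0.0192), with r = 0.845 without the 2 farthest arrays, 0.954 within the wild type and 0.901 within the double knockout. This relation missed the threshold without wild-type replicate 5 (adjusted p = 0.072), double-knockout replicate 1 (0.0523) or replicate 2 (0.0808). With the Foxo1 targets of liver, Foxo1 gave r = 0.868 and rho = 0.909 (permutation p = 0.00155 and 0.00065, adjusted 0.0496 and 0.0288), r = 0.944 without the 2 farthest arrays, 0.946 within the wild type and 0.853 within the double knockout. That call held in 1 of the 12 sets with 1 array left out, the set without double-knockout replicate 4. With hepatocyte markers, Foxo1 gave r = 0.773 and rho = 0.839 (adjusted permutation p = 0.18 and 0.0884), not past the threshold. The target and hepatocyte lists share the gene Tat.

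Bcl11a followed erythroid markers at r = 0.837 and rho = 0.72 (permutation p = 0.00132 and 0.0187, adjusted 0.0496 and 0.158), with r = 0.679 without the 2 farthest arrays. Within the wild type r was 0.882, where replicate 6 was lowest for both measures, and within the double knockout 0.863. The call held in 2 of the 12 sets with 1 array left out, and without wild-type replicate 6 the adjusted permutation p was 0.198. Ikzf1 gave r = 0.812 with the same markers (permutation p = 0.00689, adjusted 0.11), and Ebf1 and Foxo1 gave negative values of -0.50 and -0.64, none past the threshold.

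**Figure D4:**
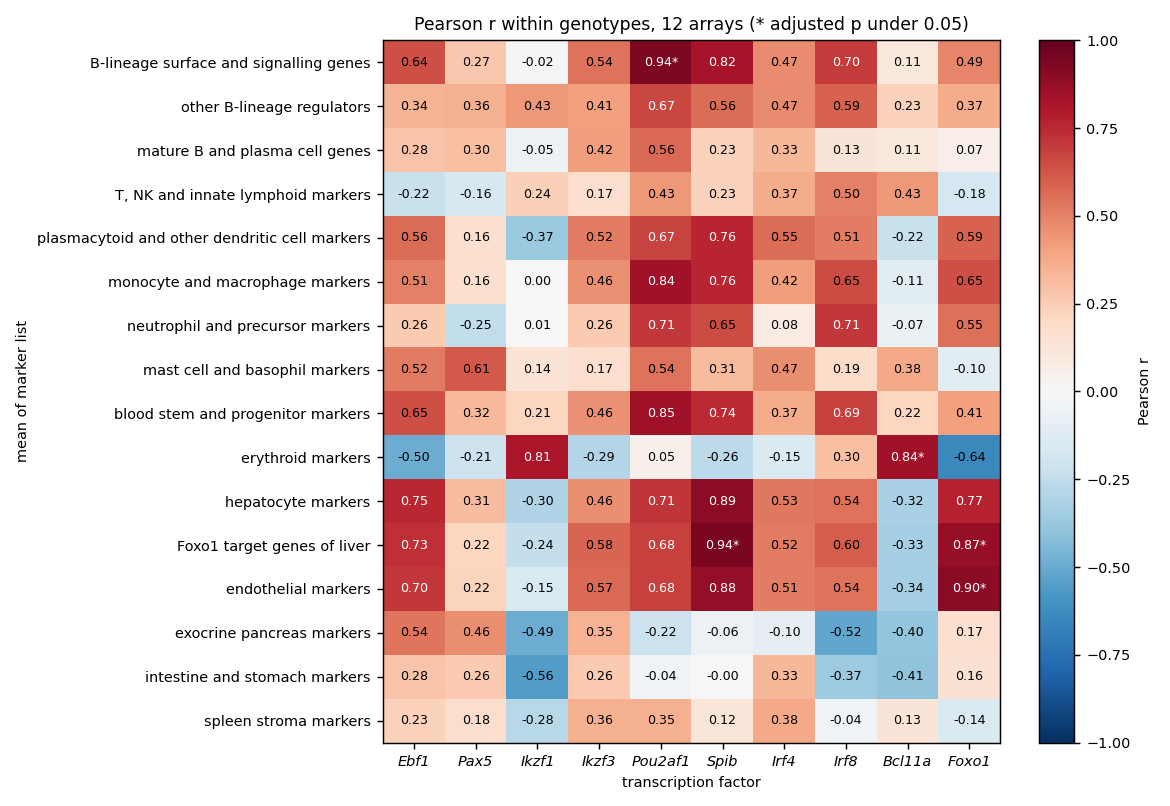
Pearson r, after centring each genotype, between each transcription factor (columns) and the mean of each marker list (vertical axis) over 12 arrays; red is positive and blue negative. Stars mark the 5 of 160 relations with an adjusted permutation p under 0.05.

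**Figure D5:**
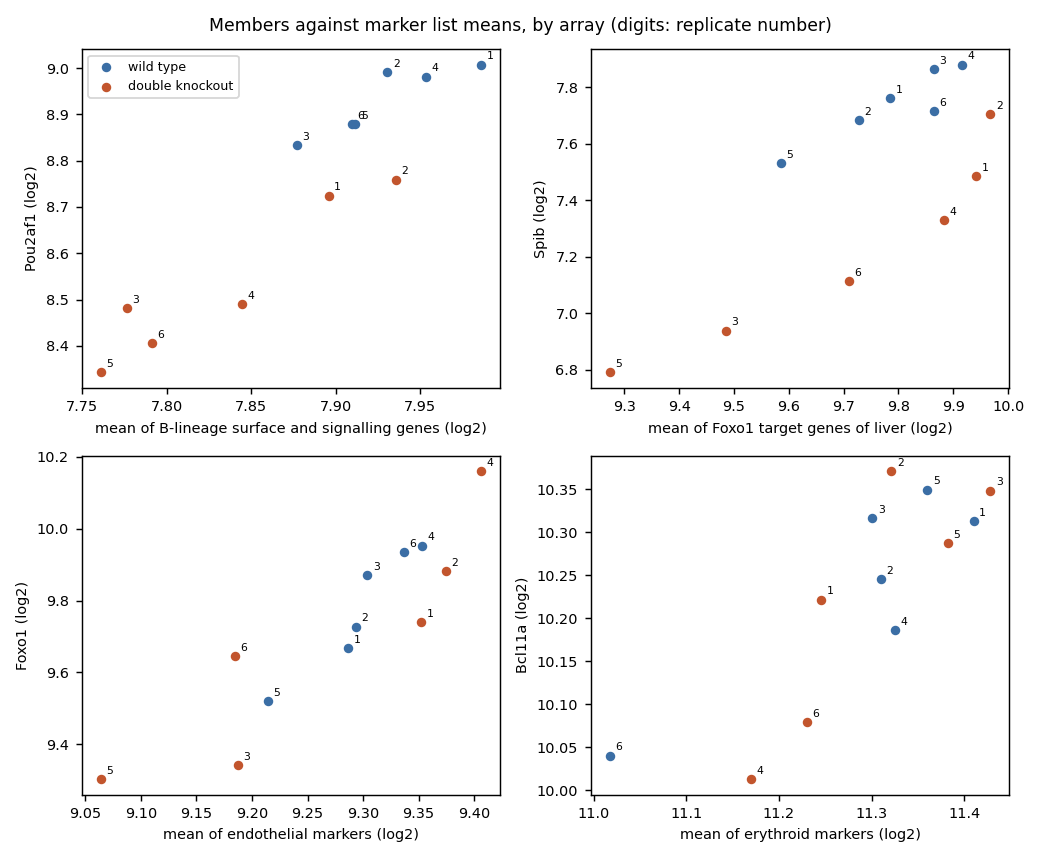
Log2 value of a transcription factor against the mean log2 value of a marker list on each wild-type (blue) and double-knockout (orange) array, with replicate numbers, for 4 of the 5 relations past the threshold. Points of each genotype rise together along both axes, and wild-type replicate 6 is lowest for erythroid markers.

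The genes whose pattern was most like each regulator, by r of centred values over the 12 arrays across all 19935 genes, are given as descriptions. For Pax5 they were Zfp521 (r = 0.838), Zbp1, Sox4, 1810055G02Rik, Coq10b, Ndn, Shisa3, Uap1l1, Lce6a and Rdh5 (0.793). For Ebf1 they were Ptpn13 (0.965), Postn and Cxcl10, and for Ikzf1 they were Cit (0.973), Zfp512b and Arrb1. For Ikzf3 the values were lower, led by Cylc1 (0.879), Zfp574 and R74862.

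Pou2af1 was most like Apoa2 (0.954), Smpdl3a and Nsun3, and Spib most like C1rl (0.973), Hsd17b11 and Abcb4. Irf4 was most like Irf2 (0.941), Slc45a3 and Gm11517, and Irf8 most like Trub2 (0.949), Klf9 and Dnajc30. Bcl11a was most like Gypc (0.952), Brpf1 and Washc1, and Foxo1 most like Irf7 (0.963), Abhd2 and Esam. Of these, Sox4 and Irf2 stand in the list of other B-lineage regulators, Apoa2 among hepatocyte, Irf7 among dendritic cell and Esam among endothelial markers. Irf2 also stands in the list of mature B and plasma cell genes. The 99th percentile of r over all genes ran from 0.615 for Pax5 to 0.89 for Spib, so high values were common for some of the regulators.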

How the data were processed

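RNA of 12 fetal livers, 6 per genotype, was measured. The values the authors deposited are on the log2 scale, 1 per probe set, from Affymetrix Expression Console per the submitters' processing notes. Its version, summarisation, background correction and build were not stated in the labels used. The log2 base was taken from the values. The table held 28815 probe sets: the platform's gene table named 1 gene for 21780 and several for 1605, and 5430 were unlisted. Symbols were updated by gene ID for 21689. Of 998 genes with more than 1 probe set, the one of highest mean was used.

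Genotypes were compared by limma (version 3.58.1, R version 4.3.3; lmFit, then eBayes), 2-sided, Benjamini-Hochberg adjusted over 19935 genes. Correlations used 100000 permutations of arrays within genotypes (NumPy 2.4.6, SciPy 1.17.1), 2-sided, or all orders within 1 genotype. The number of arrays limits precision. On simulated data of 19935 genes, the fit recovered 80% of 50 genes at 1.25-fold, 94% at 1.5-fold, 98% at 2-fold and 100% at 3-fold, with 13 false calls. The genes of all folds were changed at once, with noise drawn independently for each gene. In the real data far fewer genes passed, so the adjusted threshold was stricter there. These shares therefore do not give the recovery in the real data.

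The regulators and the 16 lists were chosen with earlier results of these data known; some genes stand in more than 1 list. Named are the 10 regulators, genes past the threshold, genes of smallest p per list, up to 3, and the most similar genes, 10 for Pax5 and 3 for each other regulator. Outside this rule, Macroh2a2 is named as a deleted gene, and Npy because it passed with 1 array left out. Alternatives were quantile normalization, a filter on dim genes, other probe set rules, another prior, array weights, a replicate block and leaving out arrays.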

Additional observations from a re-analysis of the deposited data

Results flagged for a closer look

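In groups of 6 arrays, 154 were examined for a highest or lowest array that stood apart from the nearest other by more than Dixon's 95% critical value allows for the range. Of these, 8 had one, and none of the 8 was a B-lineage regulator. The critical value lets through about 1 in 20 groups by chance. The groups share arrays, and some genes also stand in a list mean, so the total cannot be judged by that rate. Wild-type replicate 6 accounted for 5 of the 8: Car1 at 11.22, Trim10 at 9.99 and the mean of erythroid markers at 11.02 were lowest there, as was Pip5k1b at 8.56, and the mean of intestine and stomach markers was highest at 8.29. Mzb1 was lowest at 7.67 on wild-type replicate 3 and at 7.50 on double-knockout replicate 6, and Hnf4a was lowest at 11.96 on wild-type replicate 5.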

How the results depend on the processing

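The number of genes lower in the double knockout, 3, was 5 after quantile normalization and 2 to 6 with single arrays left out; the number higher, 0, was 0 to 1, the 1 being Npy without wild-type replicate 1 or 3. Genes of the lists past the threshold numbered 0 to 1 over the same sets. Regulators with lower means numbered 9 to 10 over those sets, and 6 of the 6 kept by the filter on dim genes, which removed the other 4. With single arrays left out, differences ranged from -0.44 to -0.32 for Ebf1, -0.26 to -0.22 for Pax5, -0.36 to -0.30 for Ikzf3, -0.44 to -0.36 for Pou2af1, -0.61 to -0.42 for Spib and -0.20 to -0.02 for Foxo1. An alternative chosen after seeing the data left out the 4 arrays of narrowest spread. It gave -0.19 for Ebf1, -0.24 for Spib and 0.18 for Foxo1, where quantile normalization gave -0.39, -0.54 and -0.08. Without those arrays Pou2af1 stood at -0.28, Ikzf3 at -0.28, Irf4 at -0.18, Irf8 at -0.10 and Pax5 at -0.20. These lay nearer 0 than over all arrays. Ikzf1 at -0.14 and Bcl11a at -0.08 lay farther from 0. The cause was not tested. Relations with marker lists past the threshold, 5, numbered 0 to 8 with single arrays left out, 0 in the wild type alone, 0 in the double knockout alone, each on 6 arrays, and 3 without wild-type replicate 6 and double-knockout replicate 5, also chosen after seeing the data. Relations between regulators past the threshold numbered 0 to 1 with single arrays left out. Same-numbered arrays were treated as sharing only a number, since nothing in the labels pairs them and the correlation of their deviations was -0.18 for number 2; it was 0.17 to 0.49 for the other 5, and 4 of 6 wild-type arrays were closest to their own number, a hint from the data only; with the replicate block, 2 genes passed, both lower, and no regulator. Background was not measured here, so dim probes limit Pax5, Ikzf3, Spib and Irf4.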
